A study of Mus musculus with 7 samples.

Results

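The genes examined here are 10 genes of the unfolded protein response and the integrated stress response in the mouse utricle, a balance organ of the inner ear. They are a list of names with no limit on their values: Atf4, Ddit3, Trib3, Asns, Chac1, Xbp1, Hspa5, Hsp90b1, Dnajb9 and Herpud1. All 10 were found among the 32285 genes of the count tables, and all 10 were among the 17155 genes with enough counts to be tested. In 5 of the 10 every library with Fos overexpression after gentamicin lay below every library with gentamicin alone, which 12.2% of all tested genes did. These were Trib3, Ddit3 and Asns (1.79, 1.63 and 1.63-fold lower), and Atf4 and Herpud1 (1.23 and 1.21-fold lower). Only Trib3 and Asns stayed without overlap when a trend with gene length was removed. Chac1, Xbp1, Hspa5, Hsp90b1 and Dnajb9 overlapped between the groups. None of the 10 passed the limits used for calling a gene changed with edgeR or limma-voom, and DESeq2 at the same limits called Asns.

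All libraries came from utricles of wild-type mice at postnatal day 2 that were kept as explants and damaged with 2 mM gentamicin, an aminoglycoside antibiotic that kills hair cells, for 24 h. In the Gent+Fos OE group (4 libraries) the explants were also kept for 48 h with the viral vector AAV-PHP.eB. The vector carried Fos, a subunit of the AP-1 transcription factor, under the CMV promoter, which is active in many cell types. The Gent group (3 libraries) is labelled as a gentamicin control, with gentamicin as its only named treatment. The study's figure legends for the RNA data call the comparison group a gentamicin control in some panels and a control AAV group in another. Each library was made from 12 pooled utricles collected at day 5 after injury, so the error given is that between pools and not between animals. The Gent counts are named with letters that could also mean shRNA, so whether those explants received a virus is not settled, and every fold change below rests on the labels. No undamaged library was compared, so what gentamicin itself did to these genes cannot be read from the data.

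Protein folding in the endoplasmic reticulum (ER) is watched by 3 sensors, IRE1 (the product of Ern1), ATF6 and PERK (the product of Eif2ak3). IRE1 splices the Xbp1 message into the form that encodes an active transcription factor, and ATF6 is cut to release another, and both raise ER chaperones and the machinery that removes misfolded proteins. PERK and other kinases phosphorylate the translation factor eIF2, which lowers protein synthesis as a whole but favours translation of ATF4, and ATF4 then raises genes of amino acid supply and, under lasting stress, Ddit3 (CHOP) and its partners. This second arm is called the integrated stress response because starvation, viral RNA and haem deficiency feed into it as well. Gene counts show none of the steps made on protein, nor the splicing of Xbp1, so the values below are amounts of message only.

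Some of the promoters carry short elements that the factors of the arms are known to read, with a stress element found in 6 of the 10 and an element of any kind searched in 7. RefSeq promoter windows on GRCm38.p6, from 250 bases before to 50 bases after each gene's start, were searched on both strands and gave a window for all 10 genes. The ER stress element (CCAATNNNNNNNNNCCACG), read by ATF6 and XBP1, was found in 0.119% of the 32851 windows of all genes and in 2 of the 10, Hspa5 and Hsp90b1. Its variant ERSE-II (ATTGGNCCACG) was found in 0.0365% of windows and, among the 10, in Herpud1. The ATF4 and CHOP composite element (CARE, TGATGNAA) was found in 3.97% of windows and in 4 of the 10, Trib3, Asns, Chac1 and Herpud1. The AP-1 element (TGANTCA), the kind of site that Fos binds with a Jun partner, was found in 7.81% of windows and in 2 of the 10, Ddit3 and Hspa5. The UPR element (TGACGTGG, 0.676% of windows) and the cAMP response element (TGACGTCA, 1.79%) matched none of the 10 windows, which says only that these letters are not there. In the stretches below the matched element is in capitals, each stretch is written 5′ to 3′ on its gene's strand, and none of the matches shown share bases.
Hspa5 ERSE: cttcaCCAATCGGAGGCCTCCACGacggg
Hsp90b1 ERSE, distal: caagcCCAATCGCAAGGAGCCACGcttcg
Hsp90b1 ERSE, proximal: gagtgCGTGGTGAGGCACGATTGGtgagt
Herpud1 ERSE-II: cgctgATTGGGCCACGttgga
Herpud1 CARE: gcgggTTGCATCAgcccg
Asns CARE: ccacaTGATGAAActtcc
Chac1 CARE: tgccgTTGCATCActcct
Ddit3 AP-1: gcgcaTGACTCActcac
Hspa5 AP-1: gccaaTGAGTCAgcccg

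The ERSE of Hspa5 lay at chr2:34772020-34772048 on the plus strand, inside an exon of Hspa5 in the annotation used for counting, whose start is farther upstream than the RefSeq one. Those of Hsp90b1 lay at chr10:86705633-86705661 and chr10:86705528-86705556 on the minus strand, upstream of its exons. The ERSE-II and CARE of Herpud1 lay at chr8:94386372-94386392 and chr8:94386312-94386329 on the plus strand, outside any exon. The CARE of Asns was at chr6:7693220-7693237 on the minus strand, in an Asns exon of the counting annotation, and that of Chac1 at chr2:119351044-119351061 on the plus strand. The AP-1 letters of Ddit3 were at chr10:127290546-127290562 and those of Hspa5 at chr2:34771903-34771919, both on the plus strand. A match is a run of letters and was not tested as a binding site.

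Library totals ran from 27879889 to 34335214 counts, and the 10 genes had from 66 counts in a library (Chac1) up to 44379 counts (Hspa5). Counting error is thus larger for Chac1 and Trib3 (66 to 284 counts in a library) than for the other 8. Fos itself lay at 148.8 to 167.0 CPM (counts scaled to the size of the library) in Gent+Fos OE and at 34.6 to 40.6 CPM in Gent (log2 fold change 2.01 ± 0.13 SE, adjusted p = 0.000142, edgeR), with vector and own message counted together. Gent replicate 2 stood apart: its values were lower the longer the gene (Spearman's rho across genes -0.496). It also had the most mitochondrial counts, 2.86% of its total against 1.74 to 1.99% in the others, and the part of this in the results was not tested. The length trend was not confined to that library, with rho of -0.221 in Gent replicate 3 and 0.153 in Gent replicate 1. In the Gent+Fos OE libraries rho was 0.124 to 0.325. The log2 fold change itself rose with gene length (rho 0.378), and still did without Gent replicate 2 (rho 0.189). Values without Gent replicate 2 are thus not free of the trend. The 10 genes are short, with 9 of them under the median length of tested genes (4084 bases of exon), so each is also given without Gent replicate 2 and with the length trend of every library removed. Genes were compared with edgeR's quasi-likelihood F-test, and called by the limits of the study, an adjusted p under 0.01 with a log2 fold change beyond 0.25 in either direction, which called 71 of all tested genes (0.414%). By these limits edgeR and limma-voom each called 0 of the 10 genes. At an adjusted p under 0.05 Asns alone passed as lower, where 1.19% of all tested genes did. DESeq2 at the limits of the study also called Asns alone, where it called 2.14% of genes as lower. At an unadjusted p under 0.05 and the same fold limit, 4 of the 10 (Ddit3, Trib3, Asns and Herpud1) were lower, against 13.4% of all tested genes. In 5 of the 10 (those 4 and Atf4) every Gent+Fos OE library lay below every Gent library, where 12.2% of tested genes did so. Without Gent replicate 2 this held for 7 of the 10, with Hspa5 and Hsp90b1 added, against 15.6% of tested genes, and with the length trend removed for 2 (Trib3 and Asns), against 11.4%. The median log2 fold change of the 10 was -0.27, with -0.12 after length correction and -0.20 without Gent replicate 2, beside -0.001 for all tested genes.

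**Figure D1:**
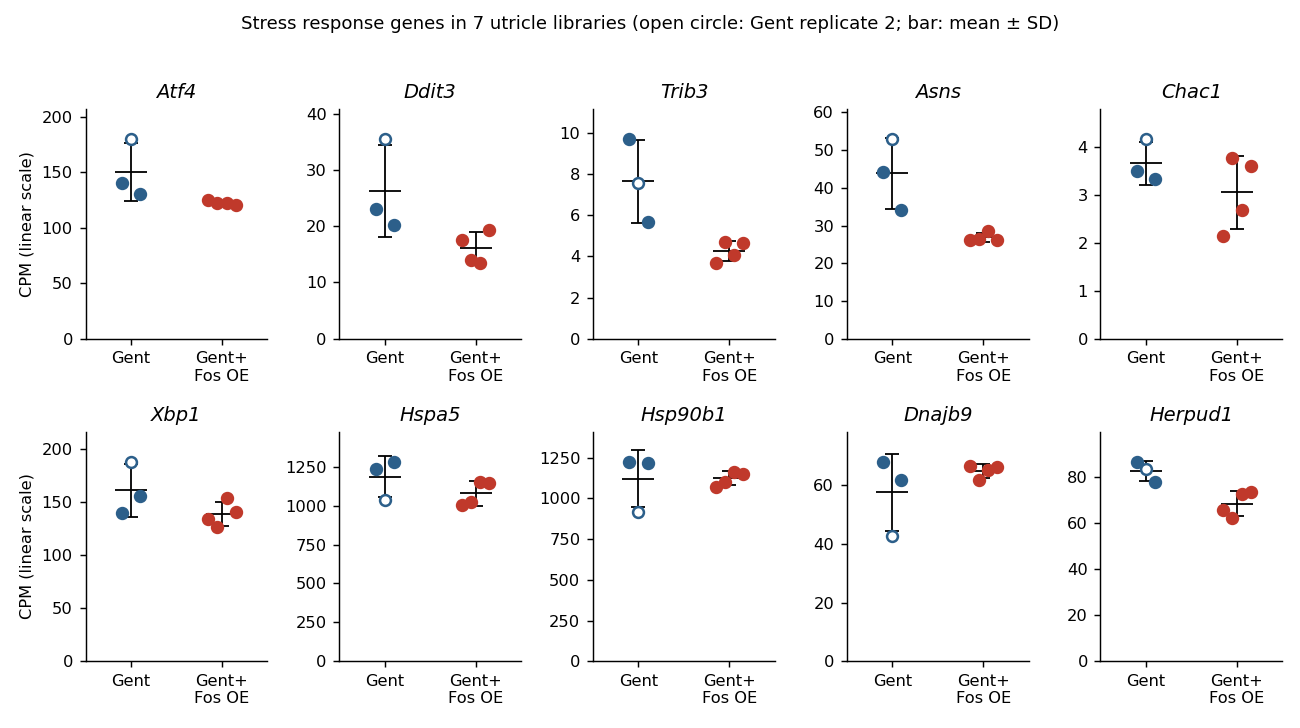
CPM of the 10 genes in each library (linear axes from 0), with Gent in blue (3 libraries, replicate 2 as an open circle) and Gent+Fos OE in red (4 libraries), and bars for mean ± SD. The red points lie below all blue points in the panels of Atf4, Ddit3, Trib3, Asns and Herpud1, and the red and blue ranges overlap in the others.

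Atf4, which encodes the transcription factor at the centre of the integrated stress response, lies on chromosome 15 (80255184 to 80257541, plus strand, mm10). It was read at 124.6, 122.7, 122.7 and 120.5 CPM in the 4 libraries with Fos overexpression and at 140.4, 180.2 and 130.5 CPM in the 3 Gent libraries. The Gent+Fos OE libraries were nearly equal to each other, with a coefficient of variation of 1.39%, against 17.5% in Gent, and none reached the lowest Gent library. The log2 fold change was -0.29 ± 0.13 (SE), which did not pass the test (adjusted p = 0.206, edgeR). About as much of this difference was left without Gent replicate 2 (-0.15) as with the length trend removed (-0.14). ATF4 is set mostly by translation, which message counts do not show.

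Ddit3 encodes CHOP, a transcription factor that ATF4 raises and that is linked to cell death under lasting ER stress. Its CPM values were 17.5, 14.0, 13.4 and 19.4 in Gent+Fos OE and 23.0, 35.5 and 20.2 in Gent. Gent replicate 2 was far above the rest, and the highest Gent+Fos OE library (19.4 CPM) came close to the lowest Gent library (20.2 CPM). Means of 16.1 ± 2.9 CPM (SD, n = 4) against 26.2 ± 8.2 CPM (SD, n = 3) gave a log2 fold change of -0.71 ± 0.21 (SE) with an adjusted p of 0.108 (edgeR). DESeq2 gave an adjusted p of 0.0335. It was -0.43 without Gent replicate 2 (adjusted p = 0.174, edgeR) and -0.49 with the length trend removed. Of its 1713 exonic bases on chromosome 10 (127290774 to 127296288, plus strand), 10.9% are shared with another gene, and reads there could not be counted.

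Trib3, a pseudokinase that ATF4 and CHOP raise and that in turn restrains them, was a low gene with 3.68, 4.69, 4.05 and 4.67 CPM in Gent+Fos OE and 9.72, 7.56 and 5.66 CPM in Gent. All 4 Gent+Fos OE libraries lay below all 3 Gent libraries, with and without Gent replicate 2 and after length correction. Here Gent replicate 1 and not replicate 2 was the highest. Its log2 fold change was the most negative of the 10 at -0.84 ± 0.22 (SE), 1.79-fold lower on average, with an adjusted p of 0.0792 (edgeR) and 0.0135 (DESeq2). It stayed at -0.85 without Gent replicate 2 and was -0.69 after length correction (adjusted p = 0.121, edgeR). Trib3 lies on the minus strand of chromosome 2, from 152337422 to 152344032.

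Asns encodes asparagine synthetase, a standard target of ATF4 in amino acid shortage, and lies on chromosome 6 (7675169 to 7693254, minus strand). It stood at 26.3, 26.5, 28.7 and 26.2 CPM in Gent+Fos OE and at 44.2, 53.0 and 34.2 CPM in Gent. The 4 Gent+Fos OE libraries lay within 2.42 CPM of each other, and the nearest Gent library was above them all. Its means were 26.9 ± 1.2 CPM (SD, n = 4) against 43.8 ± 9.4 CPM (SD, n = 3), 1.63-fold lower with Fos overexpression. The log2 fold change of -0.70 ± 0.15 (SE) had an adjusted p of 0.0473 (edgeR) and 0.00234 (DESeq2). Without Gent replicate 2 it was -0.55 (adjusted p = 0.0416, edgeR) and with the length trend removed -0.57 (adjusted p = 0.0435, edgeR). Over 17 other fits the adjusted p ran from 0.00234 to 0.175, under 0.05 in 10 of them. It was 0.0926 to 0.139 (edgeR) when any 1 Gent+Fos OE library was left out, with log2 fold changes between -0.70 and -0.74.

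Chac1 encodes an enzyme that degrades glutathione and is a target of ATF4 and CHOP. It was read at 2.15, 3.77, 2.69 and 3.60 CPM in Gent+Fos OE and at 3.49, 4.17 and 3.32 CPM in Gent, the lowest level of the 10 genes. The groups overlapped, with Gent+Fos OE replicates 2 and 4 inside the Gent range. Its log2 fold change of -0.26 ± 0.26 (SE) did not pass the test (adjusted p = 0.539, edgeR) and was -0.059 after length correction, -0.16 without Gent replicate 2 and -0.13 without Gent+Fos OE replicate 1. Chac1 lies on the plus strand of chromosome 2, from 119351229 to 119354381.

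Xbp1 encodes the transcription factor that IRE1 activates by splicing, and its message is also raised by ATF6. Its CPM values were 134.4, 126.9, 153.9 and 140.6 in Gent+Fos OE and 139.5, 188.3 and 156.0 in Gent, counted over spliced and unspliced forms together. Gent replicate 2 lay far above the other 6 libraries, among which the groups overlapped. Its log2 fold change was -0.22 ± 0.14 (SE) with all libraries (adjusted p = 0.341, edgeR), -0.094 without Gent replicate 2 and -0.11 after length correction. Xbp1 is on chromosome 11, from 5520659 to 5525893 on the plus strand.

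Hspa5 encodes BiP, the main HSP70 chaperone of the ER, which also holds the 3 sensors silent. It lay at 1002.5, 1020.4, 1151.5 and 1145.3 CPM in Gent+Fos OE and at 1238, 1036 and 1282 CPM in Gent. The Gent libraries replicate 1 and replicate 3 were above all others, and Gent replicate 2 fell among the Gent+Fos OE libraries. The log2 fold change was -0.13 ± 0.13 (SE, adjusted p = 0.526, edgeR), and without Gent replicate 2 the groups no longer overlapped and it was -0.23 (adjusted p = 0.238, edgeR). It was -0.074 without Gent replicate 3 (adjusted p = 0.798, edgeR). After length correction it was -0.11. Hspa5 lies on chromosome 2, from 34771970 to 34777547 on the plus strand.

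Hsp90b1 encodes GRP94, the HSP90 chaperone of the ER, and lies on chromosome 10 (86690209 to 86705509, minus strand). It lay at 1071.7, 1103.4, 1164.8 and 1149.8 CPM in Gent+Fos OE and at 1226, 918.1 and 1218 CPM in Gent. Gent replicate 2 was the lowest of the 7 libraries and the other Gent libraries the highest. With means of 1122 ± 43 CPM (SD, n = 4) against 1121 ± 175 CPM (SD, n = 3), it had a log2 fold change of 0.002 ± 0.13 (SE, adjusted p = 0.993, edgeR). It turned to -0.13 without Gent replicate 2 (adjusted p = 0.464, edgeR) and was 0.04 after length correction, and its direction differed between fits. Another gene shares 2.08% of its exonic bases.

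Dnajb9 encodes ERdj4, a co-chaperone of BiP that XBP1 raises and that holds IRE1 in check, on chromosome 12 (44205559 to 44210326, minus strand). Its values were 66.5, 61.5, 65.0 and 66.1 CPM in Gent+Fos OE and 67.9, 42.8 and 61.7 CPM in Gent. Gent replicate 2 was again the lowest of all, and the other 6 libraries overlapped. With all libraries the log2 fold change was 0.17 ± 0.16 (SE, adjusted p = 0.506, edgeR), and it was 0.28 after length correction, -0.006 without Gent replicate 2 and 0.31 without Gent replicate 1.

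Herpud1 encodes a membrane protein of ER-associated degradation, and its promoter window held both the ERSE-II and a CARE. It lay at 65.5, 62.1, 72.6 and 73.3 CPM in Gent+Fos OE and at 86.5, 83.3 and 77.6 CPM in Gent. All Gent+Fos OE libraries were below all Gent libraries, by 4.31 CPM at the nearest. The log2 fold change was -0.27 ± 0.12 (SE) with an adjusted p of 0.195 (edgeR). It was -0.27 without Gent replicate 2 as well, but -0.13 with the length trend removed, where the groups overlapped. Herpud1 is on the plus strand of chromosome 8, from 94386438 to 94395377.

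**Figure D2:**
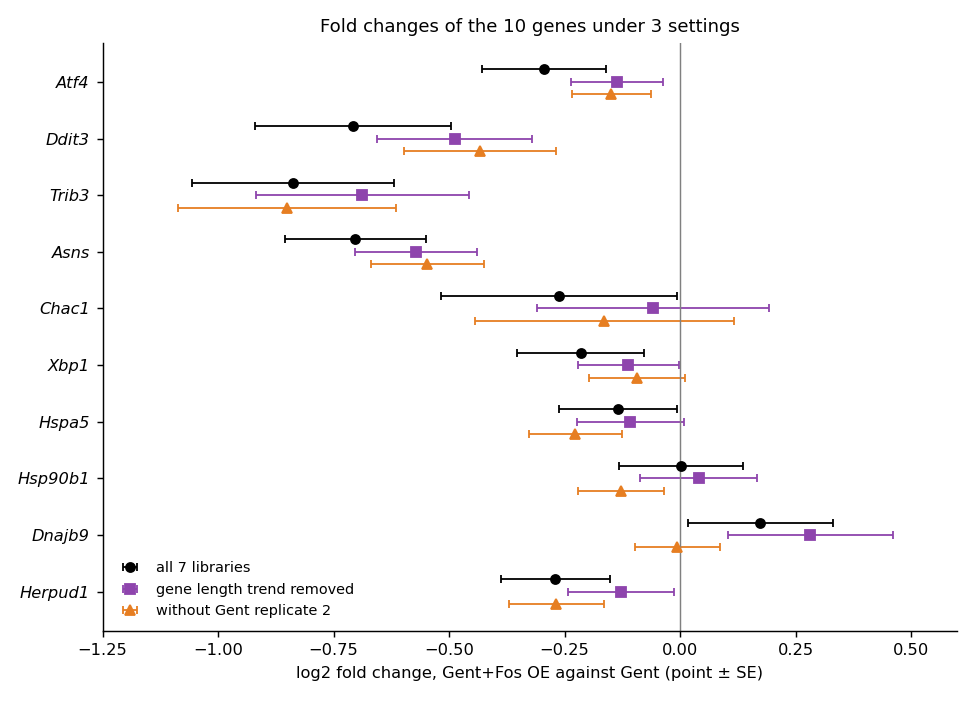
Log2 fold change of each of the 10 genes, Gent+Fos OE against Gent, with SE, for all 7 libraries (black), with the gene length trend removed (purple) and without Gent replicate 2 (orange). Ddit3, Trib3 and Asns lie between -0.43 and -0.85 in all 3 settings, Hsp90b1 and Dnajb9 change sign between settings, and the rest lie between -0.059 and -0.29.

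Ordered by level per length of message (CPM per kilobase of exon), the chaperones were far above the rest. Hsp90b1 and Hspa5 had Gent means of 277.9 ± 43.5 and 280.3 ± 31.0 (SD, n = 3), which do not differ beyond their spread. Atf4 (63.8 ± 11.1) and Xbp1 (49.7 ± 7.6) came next, overlapping within their SD, followed by Herpud1 (35.4 ± 1.9). Dnajb9 (22.6 ± 5.1), Asns (16.0 ± 3.4) and Ddit3 (15.3 ± 4.8) overlapped within their SD, and Trib3 (3.60 ± 0.96) and Chac1 (2.24 ± 0.27) were at the bottom. With Fos overexpression Hsp90b1 (278.4 ± 10.6) and Hspa5 (255.4 ± 18.8, SD, n = 4) again stood first, and Trib3 (2.01 ± 0.23) and Chac1 (1.86 ± 0.47) were within each other's SD.

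The 5 genes of the integrated stress response (Atf4, Ddit3, Trib3, Asns, Chac1) and the 5 of the ER arm (Xbp1, Hspa5, Hsp90b1, Dnajb9, Herpud1) were also averaged per library on the log2(CPM + 0.5) scale. The first mean ran from 3.87 to 4.08 in Gent+Fos OE and from 4.22 to 4.73 in Gent, without overlap, a difference of -0.52. The ER mean ran from 7.80 to 7.97 in Gent+Fos OE and from 7.85 to 8.04 in Gent, with overlap, a difference of -0.079. Only Gent replicate 2 (7.85) overlapped, and Gent replicates 1 and 3 lay above every Gent+Fos OE library, at 8.04 and 8.02. The median fitted log2 fold changes were -0.70 and -0.13, and -0.43 and -0.13 without Gent replicate 2. These means are a description with no test, and whether the arms differ was not tested. Gent replicate 2 had the highest of the 7 values in 5 of the 10 genes, among them Atf4, Ddit3 and Asns, and the lowest in Hsp90b1 and Dnajb9. In 8 of the 10 genes the coefficient of variation was smaller in Gent+Fos OE than in Gent (medians of 7.66% and 16.6%), and over all tested genes the medians were 12.0% and 21.3%.

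Around these 10 genes, 167 further genes in 9 lists of the same pathways were read from the same fit, and 166 of them were tested. None was called at the limits of the study or at an adjusted p under 0.05 (edgeR), and DESeq2 called 1 as lower, Atf3. The values were lower with Fos overexpression in 114 of the 166 and higher in 52, with a median log2 fold change of -0.14 (-0.11 after length correction and -0.11 without Gent replicate 2). At an unadjusted p under 0.05 with the fold limit, 33 were lower and 9 were higher, where 13.4% and 11.1% of all tested genes were. In 37 all Gent+Fos OE libraries lay below all Gent libraries, and in 9 above, where 12.2% and 11.3% of tested genes did so. No gene named below from these lists passed the adjusted limits with edgeR, so their values are given with no call.

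**Figure D3:**
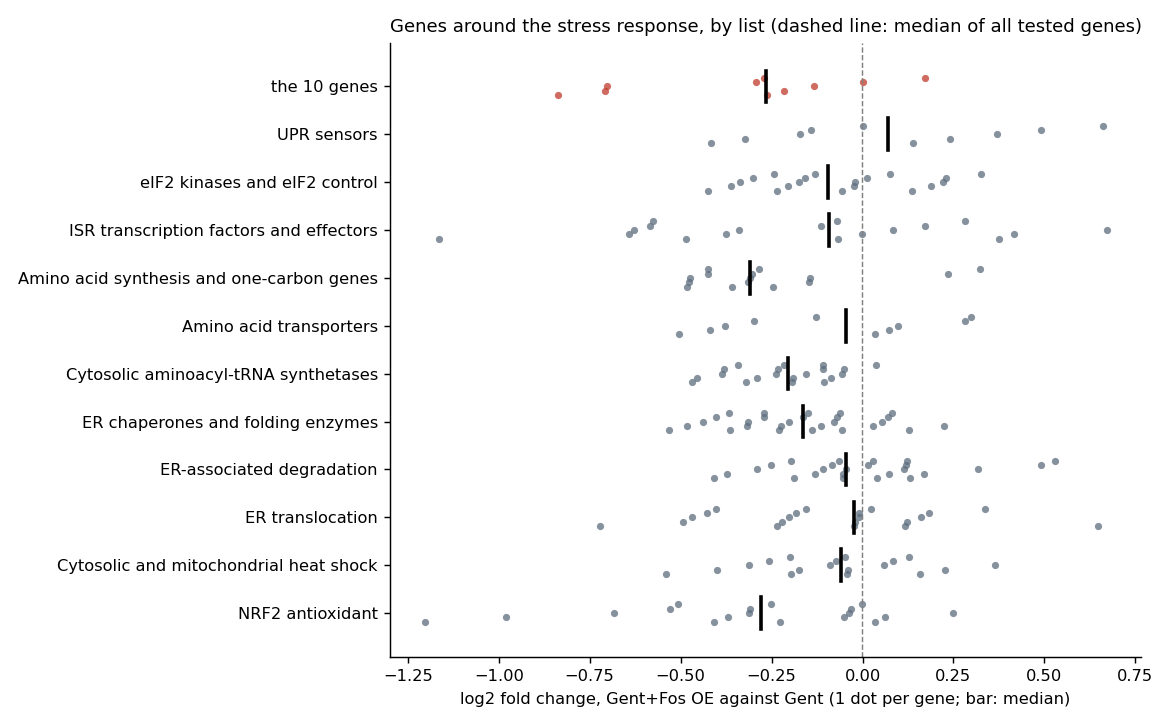
Log2 fold change (Gent+Fos OE against Gent, 1 dot per tested gene) of the 10 genes (red) and of the surrounding lists (grey), with a bar at each list's median and a dashed line at the median of all tested genes. The lists of amino acid synthesis and of tRNA synthetases lie almost wholly left of 0, with medians of -0.31 and -0.21, and the UPR sensors and their kin lie on both sides, with a median of 0.07.

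Among the sensors and other membrane-bound factors of the ER, 6 of 10 tested genes were higher and 4 lower. Ern1, which encodes IRE1, lay at 45.1 to 58.9 CPM in Gent+Fos OE and at 21.8 to 44.0 CPM in Gent, with a log2 fold change of 0.66 ± 0.21 (SE, adjusted p = 0.118, edgeR). Every Gent+Fos OE library was above every Gent library. Atf6 was likewise without overlap, at 104.0 to 113.4 against 64.0 to 98.8 CPM (log2 fold change 0.37 ± 0.16, adjusted p = 0.183, edgeR), and 0.18 after length correction. Creb3l2, an ER-bound factor related to ATF6, had a log2 fold change of 0.49 ± 0.16 (adjusted p = 0.122, edgeR), and its relative Creb3, chosen after its values were seen, one of -0.42 ± 0.17 (adjusted p = 0.180, edgeR). Without Gent replicate 2 the log2 fold changes of Ern1, Atf6, Creb3l2 and Creb3 were 0.43, 0.20, 0.33 and -0.15.

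Of the 20 genes of eIF2 and its control, 13 were lower and 7 higher, with a median of -0.094. Eif2ak3, which encodes PERK, was at 52.8 to 59.1 CPM in Gent+Fos OE and at 30.0 to 53.7 CPM in Gent, with overlap (log2 fold change 0.33 ± 0.19, adjusted p = 0.295, edgeR), and 0.10 without Gent replicate 2. The subunits of eIF2 itself, Eif2s1 (-0.34 ± 0.12, adjusted p = 0.143) and Eif2s2 (-0.30 ± 0.12, adjusted p = 0.170, edgeR), and the haem-sensing kinase gene Eif2ak1 (-0.17 ± 0.11, adjusted p = 0.341) were the 3 genes of the list whose Gent+Fos OE libraries all lay below Gent, where 12.2% of all tested genes did. Ppp1r15a, which encodes the stress-induced subunit GADD34 of the phosphatase that reverses the response, stood at 21.6 to 25.7 CPM with Fos overexpression and at 21.8 to 28.3 CPM in Gent. The sign of its log2 fold change (-0.021 ± 0.14, SE) changed between fits.

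Among 18 transcription factors and effectors of the integrated stress response, 12 were lower and 6 higher. Atf3, a factor that ATF4 raises and that is also a partner of AP-1 proteins, lay at 44.7 to 49.7 CPM with Fos overexpression and at 59.0 to 71.3 CPM in Gent. Its log2 fold change of -0.49 ± 0.12 (SE) had an adjusted p of 0.0656 with edgeR and 0.00467 with DESeq2, and it was -0.43 without Gent replicate 2. Atf5, another factor translated under eIF2 phosphorylation, had 35.8 to 45.9 CPM against 50.9 to 77.7 CPM (log2 fold change -0.63 ± 0.16, adjusted p = 0.0816, edgeR). Nupr1 and Gdf15, stress targets of the pathway, overlapped between the groups, with log2 fold changes of -0.58 ± 0.21 (adjusted p = 0.149, edgeR) and -0.34 ± 0.15 (adjusted p = 0.193, edgeR), and of -0.23 and -0.21 without Gent replicate 2. Higher values were seen for Sesn2 (0.28 ± 0.12, adjusted p = 0.196, edgeR), a sensor of leucine that ATF4 and p53 raise. The genes of the death-promoting proteins BIM (Bcl2l11, 0.42 ± 0.15, adjusted p = 0.148) and DR5 (Tnfrsf10b, 0.38 ± 0.16, adjusted p = 0.186, edgeR), which CHOP can raise, also had higher values (0.27 and 0.23 without Gent replicate 2) and were chosen after their values were seen.

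The genes of amino acid supply had the lowest median of the 9 lists. Of 15 genes of amino acid synthesis and one-carbon metabolism, 13 were lower, with a median of -0.31 (-0.29 after length correction, -0.22 without Gent replicate 2). Got1, an aspartate aminotransferase, lay at 35.2 to 39.7 CPM with Fos overexpression and at 47.8 to 53.3 CPM in Gent, with a log2 fold change of -0.43 ± 0.12 (SE, adjusted p = 0.0872, edgeR). Mthfd2, of mitochondrial one-carbon metabolism, lay at 19.1 to 26.0 against 30.3 to 32.8 CPM (-0.48 ± 0.14, adjusted p = 0.104, edgeR). Phgdh and Shmt2, of serine synthesis and its use, had log2 fold changes of -0.48 and -0.47 (both with an adjusted p of 0.142, edgeR), and Phgdh alone of this pair was without overlap. Pck2, chosen after its values were seen, was the remaining gene of the list at an unadjusted p under 0.05 (-0.42 ± 0.16, adjusted p = 0.159, edgeR). Without Gent replicate 2 Phgdh, Shmt2 and Pck2 were at -0.24, -0.28 and -0.23, and Got1 and Mthfd2 at -0.38 and -0.51.

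Of 10 amino acid transporters 5 were lower and 5 higher. Slc1a5, a glutamine carrier, lay at 13.2 to 15.9 CPM with Fos overexpression and at 19.5 to 22.0 CPM in Gent (log2 fold change -0.51 ± 0.13, adjusted p = 0.0834, edgeR). Slc3a2, the heavy chain shared by several carriers, lay at 112.1 to 125.2 against 138.1 to 189.4 CPM (-0.42 ± 0.14, adjusted p = 0.125, edgeR), and -0.26 without Gent replicate 2. Its light chain Slc7a5 overlapped between the groups (-0.30 ± 0.15, adjusted p = 0.251, edgeR), and was at -0.11 without Gent replicate 1.

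Cytosolic aminoacyl-tRNA synthetases, many of which ATF4 raises, were lower in 19 of 20, with a median of -0.21 that was also -0.21 after length correction and -0.14 without Gent replicate 2. In 10 of the 20 the Gent+Fos OE libraries all lay below the Gent libraries, where 12.2% of tested genes did. The enzyme genes for glycine (Gars1, -0.45 ± 0.12, adjusted p = 0.0859, edgeR) and serine (Sars1, -0.47 ± 0.15, adjusted p = 0.120, edgeR) had the smallest p. Yars1, Farsa and Farsb, chosen after their values were seen, were the other 3 at an unadjusted p under 0.05, with log2 fold changes of -0.38, -0.39 and -0.34. These 5 genes, without Gent replicate 2, were at -0.37, -0.27, -0.28, -0.22 and -0.21.

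Of 27 ER chaperones and folding enzymes other than the 10 genes, 21 were lower, with a median of -0.17 (-0.11 after length correction, -0.14 without Gent replicate 2). Calr, the calcium-binding chaperone calreticulin, lay at 1094 to 1182 CPM in Gent+Fos OE and at 1277 to 1392 CPM in Gent, without overlap (log2 fold change -0.27 ± 0.11, adjusted p = 0.177, edgeR). Manf, an ER protein that is secreted under stress, lay at 84.1 to 105.9 against 111.9 to 160.0 CPM (-0.48 ± 0.15, adjusted p = 0.119, edgeR). Cnpy3 (-0.44 ± 0.15, adjusted p = 0.136, edgeR) was without overlap as well, and Sdf2l1 and Creld2, standard targets of ATF6 and XBP1, overlapped with log2 fold changes of -0.40 and -0.32. Without Gent replicate 2 Calr was at -0.25, Manf at -0.32, Cnpy3 at -0.26, Sdf2l1 at -0.24 and Creld2 at -0.21.

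In ER-associated degradation 12 genes were higher and 13 lower. Selenos, a selenoprotein of the retrotranslocation complex, had a log2 fold change of -0.37 ± 0.14 (adjusted p = 0.148, edgeR) and Marchf6, a ubiquitin ligase, one of 0.49 ± 0.20 (adjusted p = 0.173, edgeR), and these 2 were the only genes of the 25 at an unadjusted p under 0.05 with the fold limit. They were at -0.32 and 0.25 without Gent replicate 2. Among 21 genes of ER translocation 14 were lower, with a median of -0.024 (-0.11 after length correction, -0.11 without Gent replicate 2). Sec61g, of the translocation channel, lay at 26.6 to 36.7 against 39.0 to 72.3 CPM (-0.72 ± 0.21, adjusted p = 0.0999, edgeR) and was -0.42 without Gent replicate 2, and Ssr2 had a log2 fold change of -0.47 ± 0.15 (adjusted p = 0.122, edgeR), and -0.29 without that library. Srp54a and Sec61a2 (0.65 ± 0.22 and 0.34 ± 0.15, adjusted p = 0.133 and 0.201, edgeR), chosen after their values were seen, were the 2 with higher values at an unadjusted p under 0.05 (0.46 and 0.19 without Gent replicate 2).

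Neighbouring stress programmes were read beside them. The 18 genes of the cytosolic and mitochondrial heat shock response had a median of -0.06, with 12 lower and 6 higher, and 3 lower at an unadjusted p under 0.05 with the fold limit, where 13.4% of all tested genes were. These were Hspa8 (-0.31 ± 0.12, adjusted p = 0.166, edgeR), the constitutive HSP70, Hspe1 (-0.54 ± 0.20, adjusted p = 0.155, edgeR) and Clpp, chosen after its values were seen (-0.40 ± 0.18, adjusted p = 0.196, edgeR). Their values without Gent replicate 2 were -0.21, -0.25 and -0.19. The 18 genes of the NRF2 antioxidant response had a median of -0.28, close to that of the 10 genes, with 15 lower. Here 0 genes passed the limits of the study with edgeR, and 3 passed an adjusted p under 0.05 as lower, where 1.19% of all tested genes did. DESeq2 called the same 3 at the limits of the study, where it called 2.14% of genes as lower. Gpx2, a glutathione peroxidase, lay at 117.0 to 174.4 CPM in Gent+Fos OE and at 271.3 to 425.2 CPM in Gent, 2.30-fold lower (log2 fold change -1.20 ± 0.18, adjusted p = 0.0104, edgeR). It passed the limits of the study with edgeR after length correction (adjusted p = 0.00377), without Gent replicate 2 (adjusted p = 0.0043) and without Gent replicate 1 (adjusted p = 0.0052). The adjusted p of Gpx2 was over that limit, at 0.0204 to 0.0441, when any 1 Gent+Fos OE library was left out (edgeR). It was 0.0336 without Gent replicate 3. Nqo1, a quinone reductase, was 1.97-fold lower (-0.98 ± 0.18, adjusted p = 0.0230, edgeR), and G6pdx, chosen after its values were seen, of the pentose phosphate pathway, 1.60-fold lower (-0.68 ± 0.14, adjusted p = 0.0408, edgeR). The adjusted p of G6pdx was 0.0743 to 0.132 when any 1 Gent+Fos OE library was left out and 0.103 without Gent replicate 3. That of Nqo1 was 0.0618 to 0.0878 without Gent+Fos OE replicate 1, 2 or 3 or Gent replicate 3. Whether the 10 genes differ from these lists was not tested.

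Marker genes of other cell types also differed in level between the groups, and in bulk tissue fewer cells of a type and less message per cell cannot be told apart. The sum over 12 macrophage markers ran from 1135 to 1868 CPM in Gent+Fos OE and from 2042 to 2594 CPM in Gent, with 11 of 12 markers lower and 8 of 12 without overlap, where 12.2% of tested genes were. Gent replicate 2, the highest library for Atf4, Ddit3 and Asns, was also the highest for this sum. It was the highest for the melanocyte and endothelium sums below as well, and Trib3 was highest in Gent replicate 1. The sum over 8 melanocyte markers was 49.1 to 53.6 CPM against 99.9 to 135.7 CPM, with 8 of 8 markers lower and 7 without overlap. By the limits of the study edgeR called 3 of the 8 as lower (Dct, Trpm1 and Tyrp1), and 7 passed at an adjusted p under 0.05. The sum over 10 supporting cell markers was higher with Fos overexpression, at 2656 to 3112 against 1889 to 2317 CPM. Of the markers 6 were higher and 4 lower, and 2 were higher without overlap (11.3% of all tested genes were). Their median log2 fold change was 0.059, with 0.10 without Gent replicate 2 and 0.23 after length correction. Most of that sum's difference was in Otog, at 1065 against 447.4 CPM on average, the 1 marker of the list that edgeR called as higher (adjusted p = 0.00851). Among the fits that omit 1 library, the highest adjusted p of Dct, Trpm1, Tyrp1 and Otog was 0.025, 0.0434, 0.0445 and 0.0415 (edgeR), over the limit of the study. The sum over 10 hair cell markers overlapped between the groups, at 703.5 to 896.2 against 609.4 to 769.5 CPM. Mesenchyme (6916 to 10385 against 8637 to 12453 CPM), endothelium (133.0 to 178.9 against 144.9 to 209.0 CPM) and Schwann cell (300.5 to 378.7 against 326.1 to 350.9 CPM) sums overlapped. None of the markers of these 7 lists was at 0 in all libraries. The part of these cell types in the values of the stress genes was not tested.

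**Figure D4:**
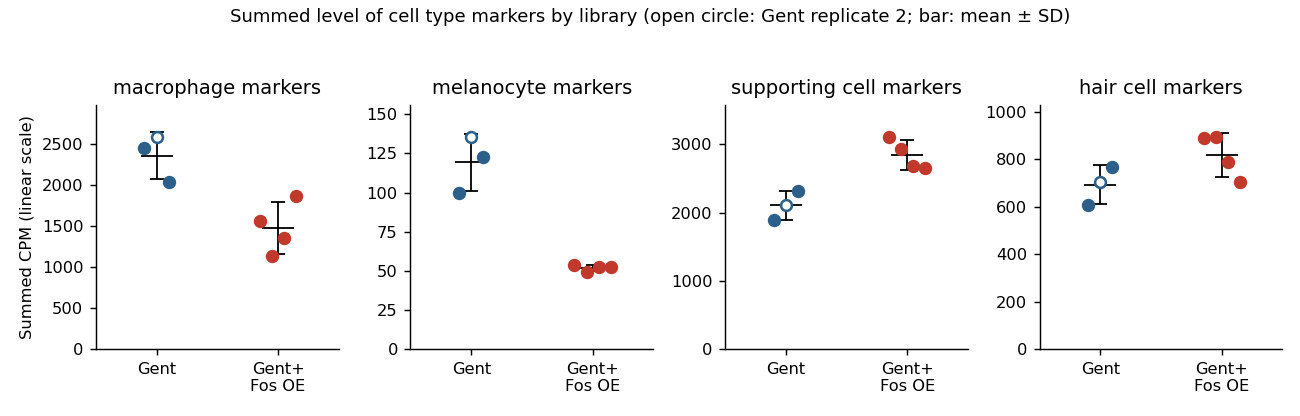
Summed CPM of the macrophage, melanocyte, supporting cell and hair cell markers in each library (linear axes from 0), Gent in blue (replicate 2 as an open circle) and Gent+Fos OE in red, with bars for mean ± SD. Macrophage and melanocyte sums are lower and supporting cell sums higher in every Gent+Fos OE library, though 4 of the 10 supporting cell markers were lower, and hair cell sums overlap.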

How the data were processed

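RNA from pooled P2 utricles (12 per group in the study's methods) was sequenced in 7 libraries, 4 of Gent+Fos OE and 3 of Gent. The authors deposited whole-number read counts per gene, not normalized, per the file headers made by featureCounts 2.0.6 with an mm10 annotation, without strand, without multi-mapping reads or reads that hit several genes, and with both mates of a pair counted. The submitters' processing notes also name Trim Galore 0.6.10, HISAT2 2.2.1 and DESeq2 1.34.0, whereas the study's methods name mm39 and 3 replicates per condition. All 7 libraries were used, and coordinates are those of the files. Totals were 27879889 to 34335214 counts. Symbols were given to 24673 genes by GENCODE vM39 and RefSeq. A duplicate Ensembl ID of Ddit3 had 0 counts.

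Counts were fitted in R 4.3.3 with edgeR 4.0.16 (filterByExpr, TMM, quasi-likelihood F-test, Benjamini-Hochberg over 17155 genes). CPM values are TMM-normalized. Alternatives were DESeq2 1.42.0, limma-voom (limma 3.58.1), RLE and upper quartile normalization, other filters on low counts, a length correction (loess span 0.3), a replicate block, and leaving out each library, and after seeing the data DESeq2 without Gent replicate 2 and the overlap counts without each library. Replicate numbers did not pair the samples. The fits were tested on simulated counts with a fixed spread that was not taken from these libraries. At the limits of the study edgeR recovered 13 of 66 genes changed by a log2 fold of 0.5 and 65 of 66 changed by 1. A gene not called may thus still differ by such a small amount as 0.5. The 10 genes and all lists were chosen with earlier results of these data known, so no list was tested as a set. Named genes were the 10, regulators and targets listed by hand, and up to 2 genes of smallest p (mean at least 1 CPM) in each list. Figures were drawn with matplotlib 3.10.9.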

Additional observations from a re-analysis of the deposited data

Results flagged for a closer look

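In groups of 4 libraries a library was marked when its gap to the nearest other exceeded Dixon's critical share of the group's range, which chance gives in about 1 of 20 groups, and 6 of 57 genes were so marked in Gent+Fos OE. Asns was at 28.7 CPM in replicate 3 and at 26.2 to 26.5 CPM in the others, all below the lowest Gent library. Replicate 3 was also apart for Calr, at 1182 CPM against 1094 to 1103 CPM, and for Fos, at 167.0 CPM against 148.8 to 151.1 CPM. Replicate 4 was apart for Atf6, at 104.0 CPM against 112.5 to 113.4 CPM, for Bcl2l11, at 52.8 CPM against 62.9 to 64.3 CPM, and for Farsb, at 74.1 CPM against 63.4 to 64.0 CPM.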

How the results depend on the processing

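The replicate numbers did not pair the samples, since same-numbered libraries deviated together with correlations of 0.064, -0.038 and 0.032 only. With a replicate block 0 genes were called higher and 0 lower, and Ppp1r15a was 0.031 (0.15 with the block and length correction, where 31 genes were called lower). Against 23 genes called higher and 48 lower, no filter gave 63 and 141, the length correction 38 and 74, DESeq2 275 and 336, DESeq2 without Gent replicate 2 314 and 333, and an adjusted p under 0.05 gave 114 and 205. Leaving out each library gave 2 to 45 higher and 3 to 93 lower, the lowest without Gent+Fos OE replicate 3 and the highest without Gent replicate 2. Of the 10 genes, Asns was the 1 called by DESeq2, by DESeq2 without Gent replicate 2 and at an adjusted p under 0.05, and of the other pathway genes Atf3 was the 1 called by either DESeq2 fit. The count of genes without overlap went from 5 to 2 with the length trend removed, and was 5 to 7 over the left-out libraries. Hsp90b1 reversed to -0.026 (upper quartile), -0.003 (no filter) and -0.12 (DESeq2 without Gent replicate 2), and ran from -0.13 (without Gent replicate 2) to 0.071 over the left-out libraries. Dnajb9 ran from -0.006 (without Gent replicate 2) to 0.31. Ppp1r15a reversed to 0.10 (length correction) and 0.11 (DESeq2 without Gent replicate 2) and ran from -0.092 to 0.099 (without Gent replicate 2). The cause was not tested. The other 8 of the 10 genes kept a negative sign in all 17 fits. With 3 Gent libraries, differences as small as those of Hspa5 and Xbp1 could not be told from the spread between pools.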
